A study of Homo sapiens with 30 samples.

Results

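FOS, FOSB, FOSL1, FOSL2, JUN, JUNB, JUND, EGR1, IER3 and MAFF are 10 genes of the immediate early class, most of them subunits of the transcription factor AP-1, and they were taken by their symbols from tables of 61471 gene symbols. All 10 were listed in both tables, and all 10 passed the filter on low values in both lines. The tables hold RNA levels of the human glioblastoma lines U87-MG and U251-MG, labelled wild type and treated with recombinant human interferon gamma (IFN-γ, the cytokine of activated T and NK cells) at a labelled 1 µg/mL. Each line had 5 groups: Untreated cells, collected at day 3 according to the labels, cells after 3 days of IFN-γ (D3), after 14 days (D14), after 28 days (D28), and after 14 days with IFN-γ followed by 14 days without it (D28WO). Of 30 libraries deposited, 28 were used: 15 of U251, with 3 in every group, and 13 of U87, with 2 at D3, 2 at D14 and 3 in each of the other groups. The study's methods describe the replicates as separate culture preparations of 1 line each, and state that the lines are on the list of commonly misidentified lines and were not re-authenticated. The cells were taken from the flasks with trypsin, in cultures whose medium was changed every 2 days, and the time from the last change to collection is not given in the sources used here.

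Immediate early genes are transcribed within minutes of a stimulus such as serum, a growth factor or stress, without new protein synthesis, and their mRNAs are short-lived. Many of their products are transcription factors: a FOS protein pairs with a JUN protein through a leucine zipper to form AP-1, JUN proteins also pair among themselves, and EGR1 binds DNA through zinc fingers. MAP kinases switch these genes on through serum response factor (SRF), ternary complex factors and CREB, and the products of the wave, among them dual specificity phosphatases, switch the kinases off again. In glioma, AP-1 members are known for their place in the mesenchymal state of the tumour cells.

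The promoters of FOS, FOSB, EGR1, JUNB and MAFF are shown here because the first 4 fell together in U251 at D3 while MAFF rose there. FOSL2, JUN and JUND also fell there and are not shown. Each sequence is the run of 130 bases before the transcription start in RefSeq on GRCh38.p14, read 5′ to 3′ on the gene's strand. Capitals mark CArG boxes, the sites of SRF, and the CREB site TGACGTCA or its 6-letter part TGACGT, on either strand. The part lies within the full site wherever that is present. In the same stretch FOSL2 and JUND hold the 6-letter part. JUN and the other MAFF window, also not shown, hold no marked site there.
EGR1, chr5:138465349-138465478, plus strand: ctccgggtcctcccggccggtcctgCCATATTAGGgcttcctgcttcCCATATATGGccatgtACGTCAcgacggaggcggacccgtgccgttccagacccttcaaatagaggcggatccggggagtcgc
FOS, chr14:75278698-75278827, plus strand: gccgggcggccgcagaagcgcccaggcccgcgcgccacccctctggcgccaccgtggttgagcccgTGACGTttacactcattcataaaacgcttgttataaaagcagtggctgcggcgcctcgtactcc
FOSB, chr19:45467866-45467995, plus strand: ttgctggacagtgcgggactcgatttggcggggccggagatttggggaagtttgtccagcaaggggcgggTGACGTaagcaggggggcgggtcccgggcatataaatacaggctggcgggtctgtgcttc
JUNB, chr19:12791356-12791485, plus strand: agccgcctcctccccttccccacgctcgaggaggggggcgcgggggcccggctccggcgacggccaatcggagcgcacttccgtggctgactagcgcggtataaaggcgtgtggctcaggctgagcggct
MAFF, chr22:38201864-38201993, plus strand: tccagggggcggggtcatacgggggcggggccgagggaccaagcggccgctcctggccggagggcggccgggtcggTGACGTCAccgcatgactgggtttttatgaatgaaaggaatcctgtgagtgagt

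Windows from 250 bases before to 50 bases after the start were on hand for 8 of the 10 genes, with 2 windows for MAFF, 9 in all; FOSL1 and IER3 had none. The letters TGACGT, chosen after the sequences had been seen, were in 6 of the 9 windows (EGR1, FOS, FOSB, FOSL2, JUND and 1 of MAFF), against 7.98% of all 35116 promoter windows. The full CREB site TGACGTCA was in the windows of JUND and MAFF, against 1.85% of all windows, and the AP-1 site TGACTCA was in that of FOSL2, against 4.95%. CArG boxes were matched in the EGR1 window, against 1.29% of all windows, from -105 to -96 and from -83 to -74 relative to the start. The gamma-activated site TTCNNNGAA was in the windows of EGR1 and MAFF, against 7.66%, and the EGR sites GCGTGGGCG and GCGGGGGCG, held by 0.795% and 5.07% of all windows, were in none of the 9. These matches describe letters in a window and were not tested for use. Sites farther from the start than the window were not searched, for CArG boxes or any other motif.

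The libraries were first read for the genes that IFN-γ is known to induce, since the D14 libraries of U87 went against their label. Of 10 IFN-γ response genes, 10 rose in U87 at D3, D28 and D28WO and 0 at D14, where the summed level of the list was 612 to 634 TPM (transcripts per 1000000, as the labels name the unit, a level per length of transcript; a supplementary sheet calls the values CPM, which are not per length) against 624 to 635 TPM in Untreated cells. It was 1906 to 1910.2 TPM at D3 and 1995 to 2259 TPM at D28. Of all genes tested in U87, 12.4%, 17.2% and 28.6% rose at D3, D28 and D28WO and 4.14% at D14. In U251 the summed level was 388 to 410 TPM in Untreated cells, 989 to 1075 TPM at D14 and 2452 to 3319 TPM at D3 and D28. At D14 in U251, 8 of the 10 genes rose, where 13.8% of all genes did. In both lines the D28WO libraries, labelled as 14 days without IFN-γ, stayed far above Untreated, with summed levels of 2020.2 to 2150.4 TPM in U87 and 2620 to 2722 TPM in U251. The D14 libraries also enter the spread used for contrasts without D14. Those contrasts were therefore fitted without the D14 libraries too, and that value is given only for calls that were lost. Glioma markers as a group were present in both lines, but not each of them. In U87, SOX2 stayed at or under 0.411 TPM, S100B at or under 3.39 TPM and GFAP at or under 19.1 TPM. In U251, OLIG2 stayed at or under 1.33 TPM. The 6 leukocyte markers summed to 215 to 449 TPM in U87 and 82.9 to 173 TPM in U251, the 3 endothelial markers to 0.886 to 3.37 TPM and 2.45 to 38.4 TPM, and the 3 epithelial markers to 2.24 to 14.0 TPM and 0.307 to 5.81 TPM. The leukocyte sum was nearly all CD68, a lysosomal protein abundant in macrophages, which made up at least 99.3% of it in U87 and 92.6% in U251. The other 5 leukocyte markers were each at or under 1.74 TPM in U87 and 5.75 TPM in U251. CDH5, a cadherin of endothelial cells, reached 31.0 TPM in U251, and EPCAM, an epithelial adhesion molecule, 9.29 TPM in U87.

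At D3 the calls among the 10 genes were rises in U87 and mostly falls in U251 (tested with limma on log2(TPM + 1), adjusted p under 0.05 over all genes tested; "rose" and "fell" mean past this threshold). In U87 at D3, FOSB, FOSL2 and MAFF rose and 0 of 10 fell, against 12.4% of all 22918 genes that rose and 4.28% that fell. In U251 at D3, 7 of 10 fell (FOS, FOSB, FOSL2, JUN, JUNB, JUND and EGR1) and FOSL1 and MAFF rose, against 16.0% of all 23667 genes that fell and 24.9% that rose. Over the 10 genes the log2 fold changes had a median of -0.03 in U87 and of -0.84 in U251, beside medians of 0.20 and 0.13 over all genes tested. The U87 calls depended on the scaling of the libraries: with median-ratio size factors FOSB rose and FOS and EGR1 fell (log2 fold changes of -0.39 and -0.53, adjusted p of 0.0398 and 0.0393), a split of 1 and 2, and the share of rises among all calls of the contrast was 49.8% in place of 74.4%. In U251 the same scaling gave 1 rise and 7 falls among the 10 genes, with a share over all genes of 51.1% in place of 60.9%. Over the 7 contrasts of each line, 23 of 70 values passed the threshold in U87 and 50 of 70 in U251, where 16.4% and 29.4% of the values of all genes passed it. The lines are in separate tables and were not tested against each other.

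At D14, FOS and FOSB rose in U87 and 0 of 10 fell, against 4.14% of all genes that rose and 1.02% that fell, in the libraries that lack the IFN-γ response. In U251 at D14, FOSL1 and IER3 rose and FOSL2, JUN, JUND and EGR1 fell, against 13.8% and 7.31% of all genes. At D28, FOS, FOSB and MAFF rose in U87 and 0 of 10 fell, against 17.2% and 6.55%, and in U251 FOSL1, IER3 and MAFF rose and the other 7 fell, against 25.9% and 14.7%. At D28WO, IER3 and MAFF rose and FOS, FOSL1 and JUN fell in U87, against 28.6% and 13.4%, and in U251 FOSB, FOSL1, FOSL2, JUN and EGR1 fell and 0 of 10 rose, against 13.4% of all genes that fell and 14.3% that rose. With median-ratio size factors the U87 splits were 2 rises and 1 fall at D28 and 1 rise and 4 falls at D28WO, where quantile normalization gave 2 rises and 1 fall. Over all genes the share of rises among the calls was 72.5% at D28 and 68.2% at D28WO as measured, 47.8% and 50% with median-ratio size factors, and 49.6% and 45.5% with quantile normalization. In U251 at D28 these scalings gave 2 rises and 7 falls, and 2 rises and 5 falls, where the share over all genes went from 63.9% to 52.7% and 47.7%. These 4 contrasts of a line share its Untreated libraries, so their counts are not independent of each other. The median of all genes lay above 0 in each of the 4, by up to 0.25 in U87 (D28WO) and 0.16 in U251 (D28), and 1 of the called changes, IER3 in U87 at D28WO, had the opposite sign relative to it (0.23 as measured, -0.02 relative to the median).

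Between consecutive groups, the genes of U251 moved together from D3 to D14, when 8 of 10 rose and 0 fell, against 12.8% and 12.6% of all genes; FOSL1 and MAFF did not pass the threshold. In U87, FOS rose and MAFF fell from D3 to D14, against 1.47% and 3.32%. From D14 to D28, FOS fell and 0 of 10 rose in U87, against 1.12% and 2.94%, and in U251 MAFF rose and FOS, FOSB, FOSL2, EGR1 and IER3 fell, against 11.3% and 9.48%. The comparison of D28WO with D28 sets cells taken off IFN-γ, according to the labels, against cells kept on it. Of the IFN-γ response list in U87, 1 of 10 genes fell and 0 rose (median -0.0088, beside 0.04 over all genes), and in U251 4 fell and 2 rose (median -0.20, beside -0.12 over all genes). In U87, IER3 and MAFF rose and FOS, FOSB, FOSL2, JUN and EGR1 fell, against 9.90% and 8.44% of all genes. In U251, FOSL2, JUND and EGR1 rose and FOSL1, IER3 and MAFF fell, against 10.3% and 18.8%, and with median-ratio size factors JUNB joined the rises (0.28, adjusted p = 0.0229).

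**Figure D1:**
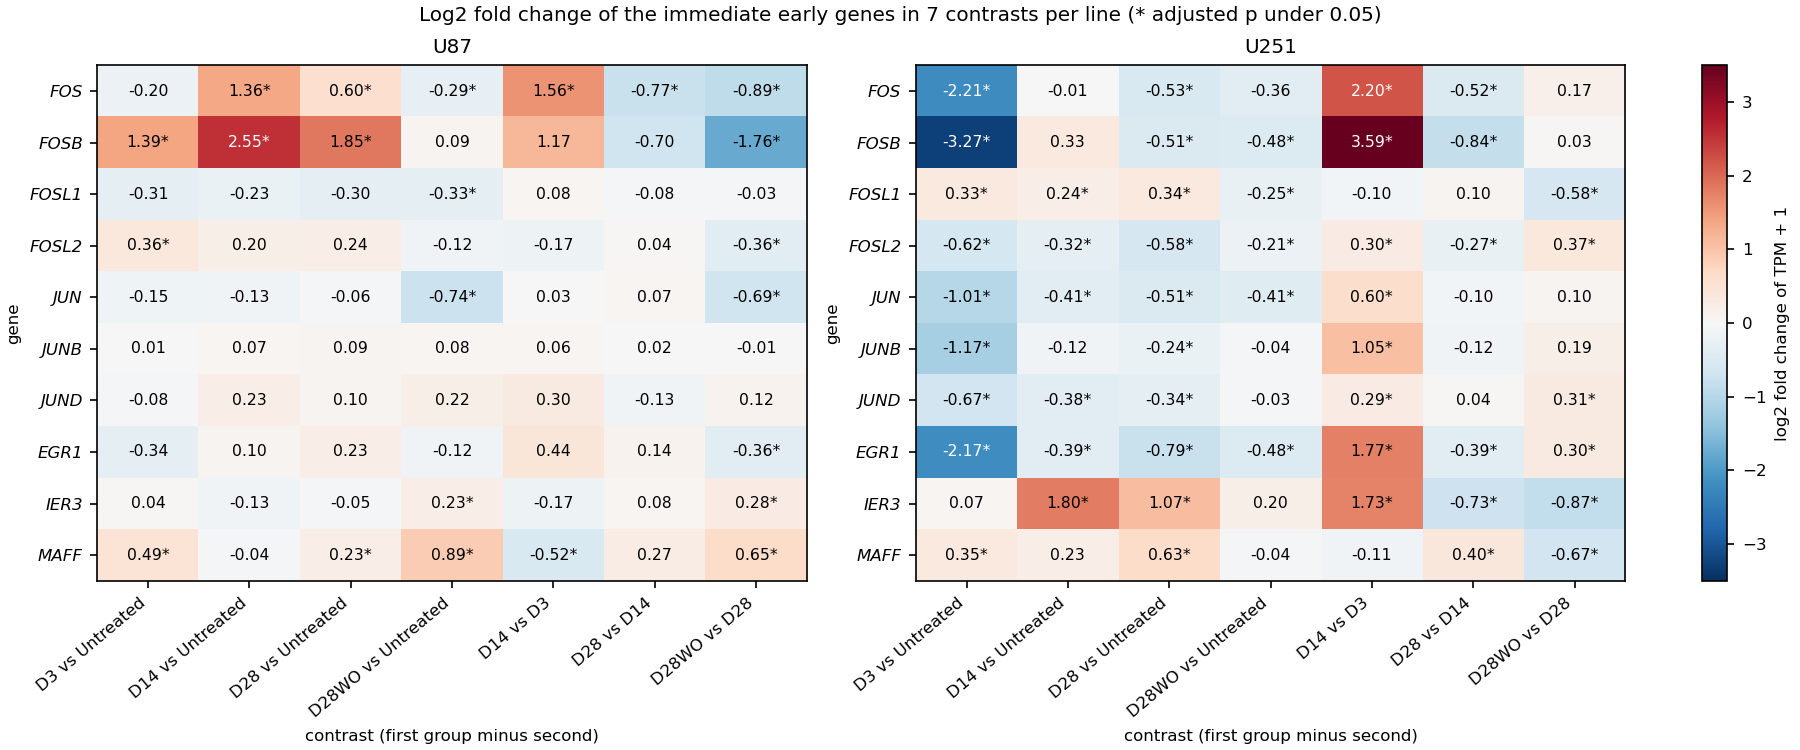
Log2 fold change of TPM + 1 of each of the 10 genes (rows) in 7 contrasts (columns) in U87 (left) and U251 (right); red is higher and blue lower in the first group of the contrast, and an asterisk marks an adjusted p under 0.05. The D3 column of U251 holds the deepest falls against Untreated, -2.21 for FOS, -3.27 for FOSB and -2.17 for EGR1, and FOS and FOSB rose in U87 at D14 by 1.36 and 2.55.

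FOS, the founding member of its family and the best known partner of JUN, was at 129, 152 and 134 TPM in Untreated U87, at 126 and 114 TPM at D3, at 346 and 366 TPM at D14, at 209, 240.2 and 181 TPM at D28 and at 107, 109 and 121 TPM at D28WO. The D14 and D28 libraries lay above every Untreated library and the D28WO libraries below every one. FOS rose against Untreated by 1.36 ± 0.11 (log2 fold change ± SE) at D14 (2 against 3 libraries, adjusted p = 0.000208) and by 0.60 ± 0.10 at D28 (adjusted p = 0.0019), and fell by 0.29 ± 0.10 at D28WO (adjusted p = 0.0357). The fall at D28WO was lost without Untreated replicate 2 or 3 or D28WO replicate 1 or 2, with adjusted p from 0.0584 to 0.13, and with quantile normalization (-0.23, adjusted p = 0.135), whereas with median-ratio size factors FOS was at -0.52 (adjusted p = 0.00172). Between consecutive groups FOS rose by 1.56 ± 0.12 from D3 to D14 (adjusted p = 1.86e-05) and fell by 0.77 ± 0.11 from D14 to D28 (adjusted p = 0.00198). It fell by 0.89 ± 0.10 against D28 at D28WO (adjusted p = 0.000234).

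In U251 FOS was at 382, 349 and 387 TPM in Untreated cells, 58.0, 96.0 and 91.1 TPM at D3, 396, 387 and 332 TPM at D14, 231, 259 and 288 TPM at D28 and 269, 303 and 301 TPM at D28WO. The 3 D3 libraries lay below those of every other group, and D14 overlapped with Untreated. Against Untreated the log2 fold change of FOS was -2.21 ± 0.15 at D3 (adjusted p = 6.38e-08), -0.01 ± 0.15 at D14 (adjusted p = 0.994) and -0.53 ± 0.15 at D28 (adjusted p = 0.0123). Without D28 replicate 1 the adjusted p of FOS at D28 was 0.0556, and with quantile normalization the value was -0.32 (adjusted p = 0.14). At D28WO the value was -0.36 ± 0.15 (adjusted p = 0.0972). FOS rose by 2.20 ± 0.15 from D3 to D14 (adjusted p = 2.65e-07) and fell by 0.52 ± 0.15 from D14 to D28 (adjusted p = 0.0246), the latter lost without D14 replicate 1 or 2 or D28 replicate 1 or 2 (0.0696 to 0.0988).

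FOSB, a close relative of FOS that neurons and fibroblasts induce with it, moved most of the 10 genes. In U87 it was at 15.1, 22.7 and 13.8 TPM in Untreated cells, 39.4 and 52.6 TPM at D3, 94.9 and 113 TPM at D14, 92.5, 85.1 and 32.2 TPM at D28 and 12.9, 21.6 and 20.8 TPM at D28WO. D3, D14 and D28 lay above every Untreated library, D28 replicate 3 stood apart from its 2 companions, and D28WO overlapped with Untreated. The log2 fold change was 1.39 ± 0.39 at D3 (adjusted p = 0.0329), 2.55 ± 0.39 at D14 (adjusted p = 0.00786) and 1.85 ± 0.35 at D28 (adjusted p = 0.00346). The FOSB call at D3 was lost without the D14 libraries (adjusted p = 0.0516) and without any 1 of Untreated replicates 1 and 3 and D3 replicates 2 and 3 (0.0779 to 0.181), with quantile normalization FOSB was at 1.07 there (adjusted p = 0.109), and that at D14 without either of its own libraries (0.0682 and 0.079). Against D28, FOSB fell at D28WO by 1.76 ± 0.35 (adjusted p = 0.00521).

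In U251 FOSB was at 144, 125 and 112 TPM in Untreated cells, 10.0, 12.5 and 14.6 TPM at D3, 185, 175 and 124 TPM at D14, 76.7, 88.0 and 102 TPM at D28 and 91.3, 88.8 and 90.3 TPM at D28WO. The D3 libraries lay far below all others, and those at D28 and D28WO lay below every Untreated library. Its mean at D3 was 0.0974 times that of Untreated cells, a log2 fold change of -3.27 ± 0.16 (adjusted p = 2.27e-09), and from D3 to D14 it rose by 3.59 ± 0.16 (adjusted p = 5.34e-09). From D14 to D28 it fell by 0.84 ± 0.16 (adjusted p = 0.00191). Against Untreated it fell by 0.51 ± 0.16 at D28 (adjusted p = 0.02) and by 0.48 ± 0.16 at D28WO (adjusted p = 0.0364). The D28 call was lost without Untreated replicate 1 or D28 replicate 1 or 2 (adjusted p from 0.0547 to 0.087), and the D28WO call without any 1 of Untreated replicates 1 and 2 and the 3 D28WO libraries (0.0773 to 0.139).

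FOSL1 and FOSL2, the FOS-related antigens, lack the strong activation domain of FOS and are induced later and for longer. FOSL1 had the highest level of the FOS family in Untreated U87, at 278, 284 and 355 TPM, and went to 231, 255 and 239 TPM at D28WO, a log2 fold change of -0.33 ± 0.11 (adjusted p = 0.0277). That call was lost without Untreated replicate 3 or D28WO replicate 1 or 3, with adjusted p from 0.0721 to 0.113, and with quantile normalization the value of FOSL1 was -0.08 (adjusted p = 0.489), with median-ratio size factors -0.56 (adjusted p = 0.0115). Its libraries at D3, D14 and D28 lay between 228 and 288 TPM, and these groups did not pass the threshold against Untreated. At D28 the value of FOSL1 was -0.30 (adjusted p = 0.0631), and with median-ratio size factors it was -0.49 (adjusted p = 0.0371). In U251 FOSL1 was at 145, 141 and 145 TPM in Untreated cells, 179, 205 and 162 TPM at D3, 168, 168 and 173 TPM at D14, 167, 185 and 193 TPM at D28 and 112, 124 and 126 TPM at D28WO. All libraries at D3, D14 and D28 lay above, and all at D28WO below, the Untreated ones. It rose by 0.33 ± 0.08 at D3 (adjusted p = 0.00357), by 0.24 ± 0.08 at D14 (adjusted p = 0.0448) and by 0.34 ± 0.08 at D28 (adjusted p = 0.00358), and fell by 0.58 ± 0.08 from D28 to D28WO (adjusted p = 9.04e-05). Under median-ratio scaling the 3 rises of FOSL1 were 0.23, 0.15 and 0.22, with adjusted p of 0.0521, 0.264 and 0.0631. The D14 call was lost without any 1 of the 6 libraries compared (adjusted p from 0.0803 to 0.121). Against Untreated, FOSL1 fell at D28WO by 0.25 ± 0.08 (adjusted p = 0.0287), a call lost without any 1 of the Untreated libraries or D28WO replicate 1 (0.0535 to 0.12) and, for FOSL1 too, without the D14 libraries (0.0507).

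FOSL2 was at 123, 118 and 134 TPM in Untreated U87 and at 167 and 154 TPM at D3, a rise of 0.36 ± 0.11 (adjusted p = 0.0441). This call was lost without the D14 libraries (adjusted p = 0.0616) and without any 1 of the 5 libraries compared (0.0542 to 0.254), and with median-ratio size factors FOSL2 was at 0.17 (adjusted p = 0.448). In U87 FOSL2 also fell from D28 to D28WO by 0.36 ± 0.10 (adjusted p = 0.0257), which was lost without D28 replicate 2 or 3 or D28WO replicate 1 or 2 (0.0549 to 0.105). In U251 it was at 185, 179 and 199 TPM in Untreated cells, 136, 117 and 114 TPM at D3, 146, 150.4 and 154 TPM at D14, 113, 127 and 135 TPM at D28 and 165, 155 and 164 TPM at D28WO. Every treated library lay below every Untreated one. It fell by 0.62 ± 0.08 at D3 (adjusted p = 1.95e-05), by 0.32 ± 0.08 at D14 (adjusted p = 0.00879) and by 0.58 ± 0.08 at D28 (adjusted p = 3.14e-05). At D28WO it fell by 0.21 ± 0.08 (adjusted p = 0.0488), a call lost without any 1 of the 6 libraries compared (0.0545 to 0.17) and without the D14 libraries (0.075). FOSL2 rose by 0.30 ± 0.08 from D3 to D14 (adjusted p = 0.01) and by 0.37 ± 0.08 from D28 to D28WO (adjusted p = 0.00229), and from D14 to D28 it fell by 0.27 ± 0.08 (adjusted p = 0.0218), lost without D14 replicate 2 or 3 or D28 replicate 1 (0.059 to 0.0972).

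**Figure D2:**
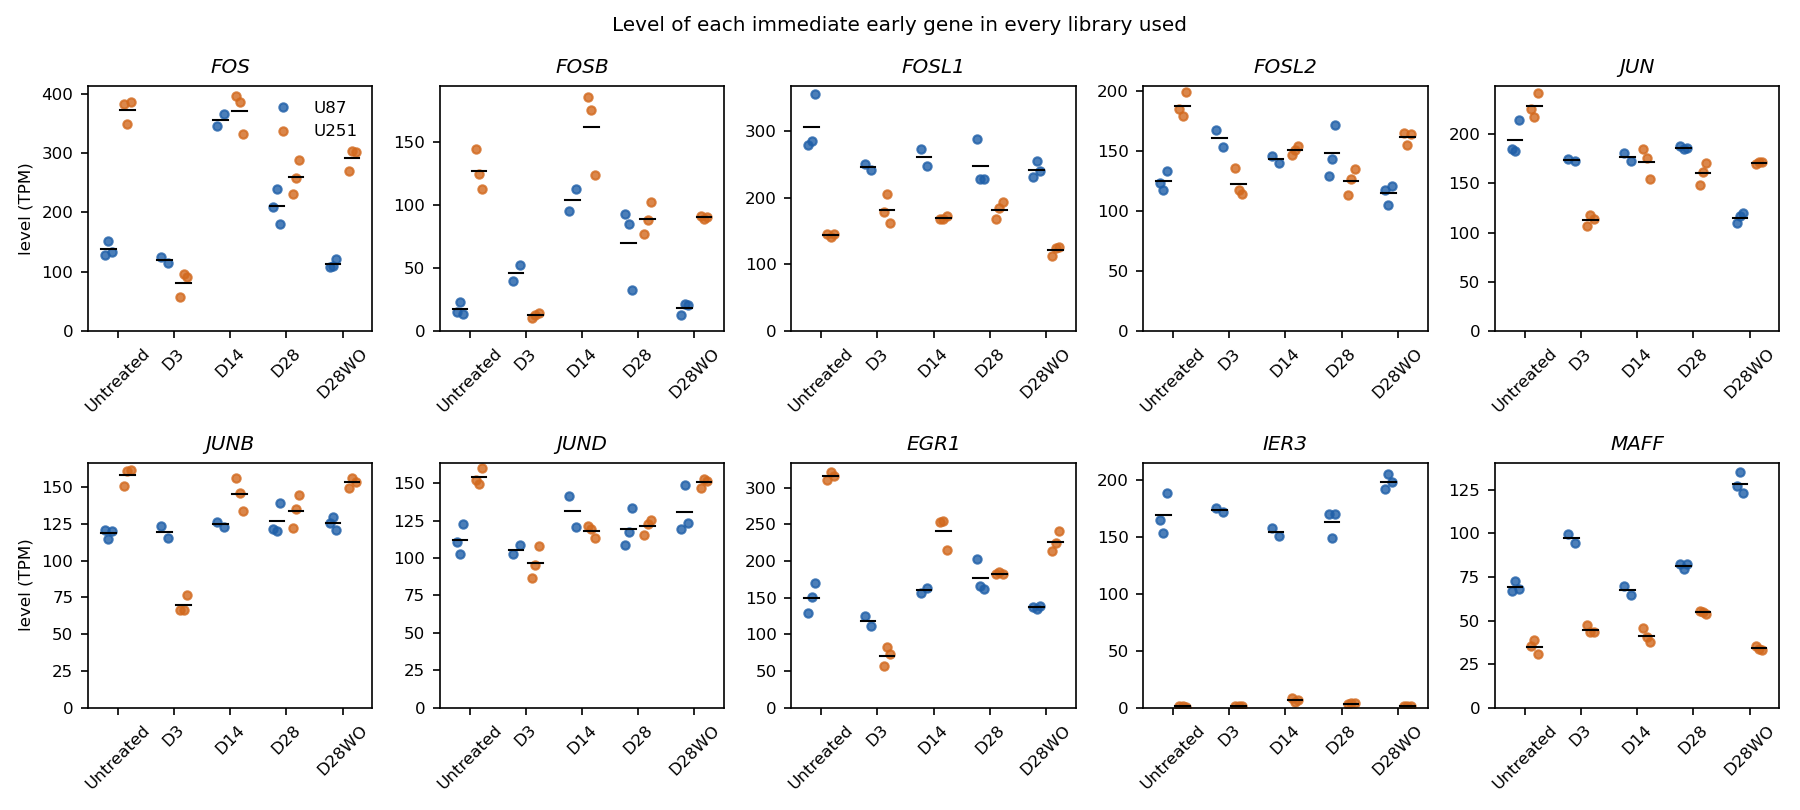
Level in TPM (y axis, from 0, a separate scale for each gene) of the 10 genes in each library used of U87 (blue) and U251 (orange) by group (x axis); points are libraries and black bars are group means. FOS, FOSB, JUNB and EGR1 dip at D3 in U251, with FOS at 58.0 to 96.0 TPM there, JUN drops at D28WO in U87, to 109 to 119 TPM, and IER3 lies under 9 TPM in U251.

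JUN, the archetype of the JUN family, whose protein is activated by JNK phosphorylation, was at 185, 183 and 214 TPM in Untreated U87, 175 and 173 TPM at D3, 181 and 173 TPM at D14 and 188, 185 and 186 TPM at D28. At D28WO it was at 109, 117 and 119 TPM, below every other library of the line. It fell by 0.74 ± 0.07 against Untreated (adjusted p = 7.46e-06) and by 0.69 ± 0.07 against D28 (adjusted p = 0.000121), and both calls held under every alternative run. In U251 JUN was at 225, 217 and 242 TPM in Untreated cells, 107, 118 and 114 TPM at D3, 185, 176 and 155 TPM at D14, 149, 162 and 171 TPM at D28 and 169.7, 172 and 172 TPM at D28WO. Every treated library lay below every Untreated one. The log2 fold changes against Untreated were -1.01, -0.41, -0.51 and -0.41 at D3, D14, D28 and D28WO, each ± 0.07, with adjusted p of 9.12e-08, 0.00111, 6.37e-05 and 0.000598, and these 4 calls held under every alternative run. JUN rose by 0.60 ± 0.07 from D3 to D14 (adjusted p = 3.65e-05), and from D28 to D28WO the value was 0.10 (95% confidence interval -0.06 to 0.25, adjusted p = 0.346).

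JUNB, which restrains JUN on some promoters, was the steadiest gene in U87: its 13 libraries lay between 115 and 139 TPM, and in none of the 7 contrasts did it pass the threshold. In U251 it was at 151, 161 and 162 TPM in Untreated cells and at 66.5, 66.3 and 76.5 TPM at D3, a fall of 1.17 ± 0.08 (adjusted p = 4.07e-08), and it rose from D3 to D14 by 1.05 ± 0.08 (adjusted p = 4.75e-07). At D28 it was at 123, 135 and 145 TPM, below the Untreated libraries, with a fall of 0.24 ± 0.08 (adjusted p = 0.0223) that was lost without Untreated replicate 2 or 3 or D28 replicate 1 (0.0652 to 0.101). At D28WO it was at 149.6, 157 and 154 TPM, and the change against Untreated was -0.04 (95% confidence interval -0.21 to 0.12). JUNB shares exonic sequence with HOOK2 on the other strand, and strand use in the counting is not given in the sources used here, so reads of this pair cannot be told apart.

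JUND, the member that resting cells also express, passed the threshold in 0 of 7 contrasts in U87, where its libraries lay between 103 and 149 TPM. In U251 it was at 152, 149.9 and 160.3 TPM in Untreated cells, 86.8, 95.7 and 108 TPM at D3, 121, 119 and 113 TPM at D14, 115, 123 and 126 TPM at D28 and 147, 153 and 152 TPM at D28WO. The libraries at D3, D14 and D28 lay below all Untreated ones, and those at D28WO overlapped with them. It fell by 0.67 ± 0.07 at D3 (adjusted p = 4.03e-06), by 0.38 ± 0.07 at D14 (adjusted p = 0.00154) and by 0.34 ± 0.07 at D28 (adjusted p = 0.00133). JUND rose by 0.29 ± 0.07 from D3 to D14 (adjusted p = 0.00766) and by 0.31 ± 0.07 from D28 to D28WO (adjusted p = 0.00417).

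The sum of the family levels shows how the pool was made up. In Untreated U87, FOSL1 made up 52.1% ± 3.38 (SD, n = 3) of the FOS family sum of 586 ± 46.2 TPM and FOS 23.7% ± 2.69. At D14 the sum was 863 ± 4.01 TPM (n = 2), with FOS at 41.3% ± 1.45 and FOSL1 at 30.2% ± 2.26. In U251 the order was turned: FOS made up 44.8% ± 0.962 of 831 ± 33.2 TPM in Untreated cells and FOSL1 17.3% ± 0.386. At D3 FOSL1 made up 45.6% ± 2.74 and FOS 20.4% ± 4.65 of 398 ± 27.9 TPM (n = 3 each). The JUN family sum went from 540 ± 20.9 TPM to 279 ± 18.7 TPM at the same step, so that the ratio of the FOS to the JUN sum stayed at 1.54 ± 0.0701 and 1.43 ± 0.133. At D14 this ratio was 2.00 ± 0.116 in U87 and 1.96 ± 0.0295 in U251, against 1.38 ± 0.0671 in Untreated U87. The D14 libraries of U87 lack the IFN-γ response, so the 2 values do not describe the same labelled state. The U87 JUN sum was 425 ± 28.9 TPM in Untreated cells and 372 ± 21.8 TPM at D28WO, where JUN made up 31.1% ± 1.65 of it, after 45.7% ± 1.21. These sums are descriptions without a test.

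**Figure D3:**
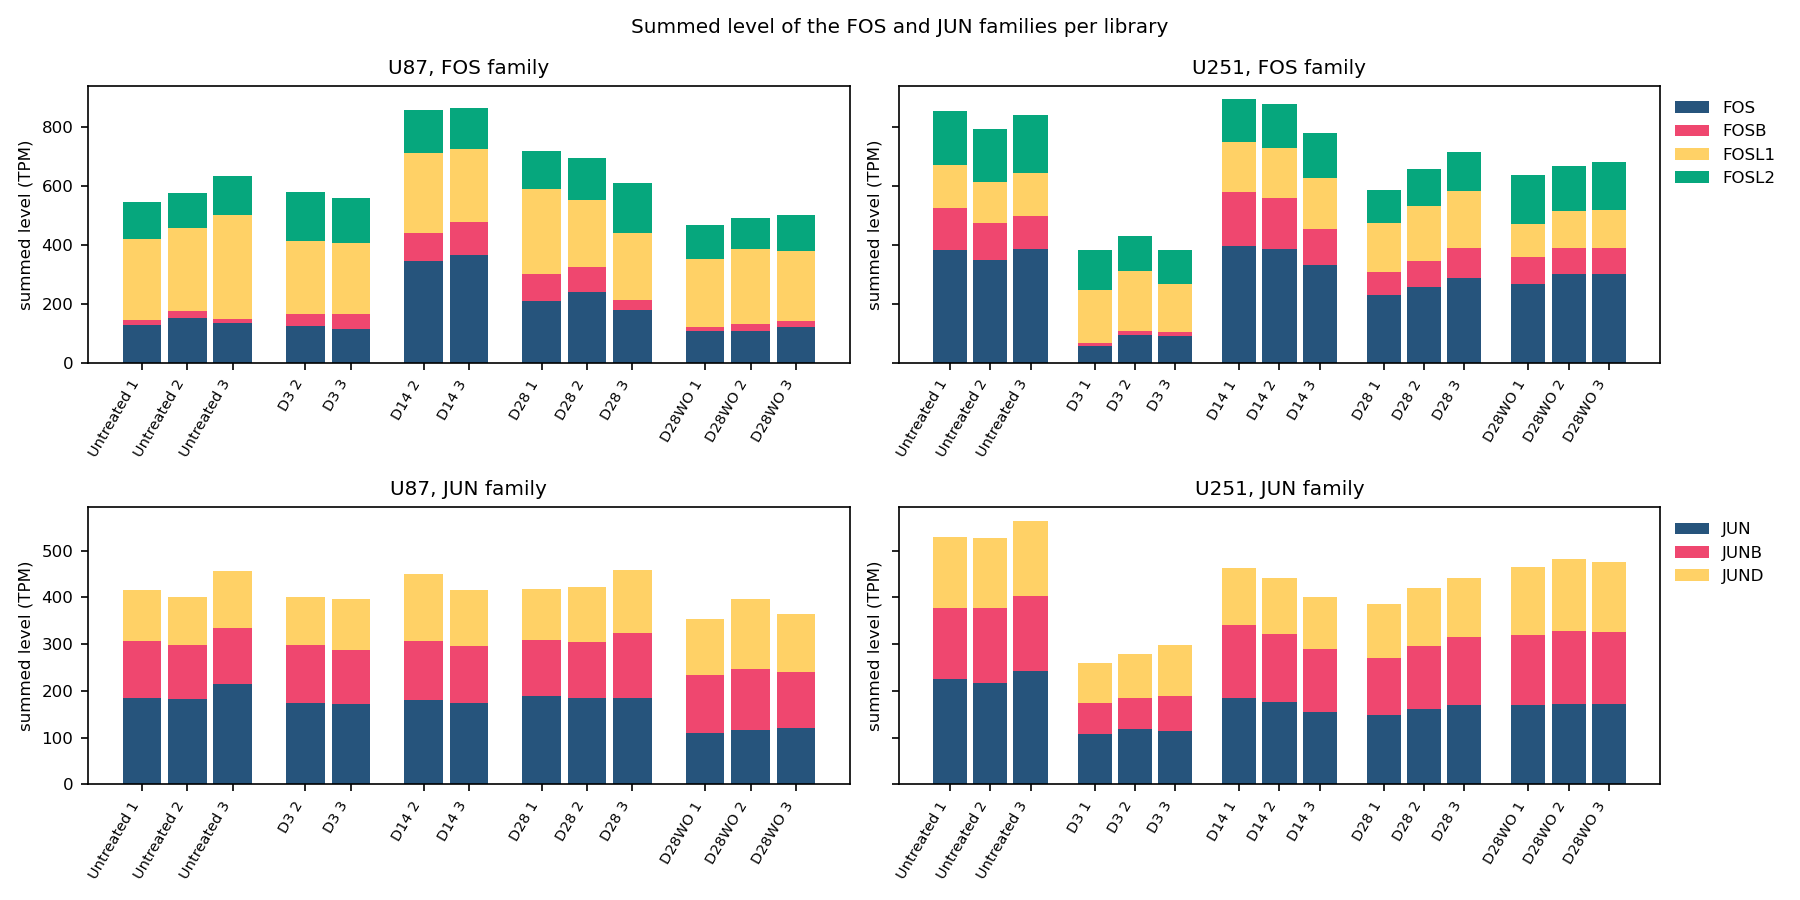
Summed level in TPM (y axis, from 0) of the FOS family (top) and the JUN family (bottom) in each library used (x axis, group and replicate) of U87 (left) and U251 (right), with colours for the members. The U251 D3 bars are the lowest of their line in both families, with FOS family sums of 382 to 431 TPM, and the U87 D14 bars are the highest of theirs for the FOS family, at 859.8 to 866 TPM.

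EGR1, the zinc finger factor whose promoter carries the CArG boxes printed above, was at 129, 151 and 169.5 TPM in Untreated U87, 124 and 112 TPM at D3, 156 and 164 TPM at D14, 203, 165 and 162 TPM at D28 and 137, 135 and 138 TPM at D28WO. In U87 it passed the threshold in 1 of 7 contrasts, a fall of 0.36 ± 0.10 from D28 to D28WO (adjusted p = 0.0341). That call was lost without the D14 libraries (0.0509) and without D28 replicate 1 or 2 or any 1 of the D28WO libraries (0.0505 to 0.115). Other settings gave further calls of EGR1 in U87. With quantile normalization it rose at D28 (0.33, adjusted p = 0.042), and with array weights from D3 to D14 (0.44, adjusted p = 0.0454). With median-ratio size factors it fell at D3 (-0.53, adjusted p = 0.0393). In U251 EGR1 was at 311, 321 and 316 TPM in Untreated cells, 56.5, 82.5 and 72.6 TPM at D3, 254, 255 and 216 TPM at D14, 182, 184 and 182 TPM at D28 and 214, 225 and 241 TPM at D28WO. Every treated library lay below every Untreated one, and the D3 libraries below all others. The log2 fold changes against Untreated were -2.17 ± 0.11 at D3 (adjusted p = 2.36e-09), -0.39 ± 0.11 at D14 (adjusted p = 0.0176), -0.79 ± 0.11 at D28 (adjusted p = 4.71e-05) and -0.48 ± 0.11 at D28WO (adjusted p = 0.00369). The D14 call was lost without Untreated replicate 2 or D14 replicate 3 (adjusted p of 0.0554 and 0.0855) and with quantile normalization (EGR1 at -0.28, adjusted p = 0.124). It rose by 1.77 ± 0.11 from D3 to D14 (adjusted p = 8.25e-08). From D14 to D28 EGR1 fell by 0.39 ± 0.11 (adjusted p = 0.0173), lost without D14 replicate 1 or 2 or D28 replicate 1 (0.0509 to 0.0707). EGR1 rose from D28 to D28WO by 0.30 ± 0.11 (adjusted p = 0.0451), lost without any 1 of the 6 libraries compared (0.0576 to 0.148) and without the D14 libraries (0.0563).

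IER3, an immediate early gene of the NF-κB and p53 response whose product affects cell survival, had the levels farthest apart. It was between 149.1 and 205 TPM in the U87 libraries and between 0.853 and 8.52 TPM in those of U251. In U87 it was at 165, 153 and 189 TPM in Untreated cells and at 192, 205 and 198 TPM at D28WO, a rise of 0.23 ± 0.08 (adjusted p = 0.0344). That rise was lost without Untreated replicate 1 or 2 or any 1 of the D28WO libraries (0.0547 to 0.128), and under median-ratio scaling it was 0.01 (adjusted p = 0.983). The rise from D28 to D28WO, 0.28 ± 0.08 (adjusted p = 0.0295), was 0.24 under that scaling (adjusted p = 0.234) and was lost without D28 replicate 2 or any 1 of the D28WO libraries (0.0618 to 0.105). In U251 it was at 1.44, 1.12 and 0.853 TPM in Untreated cells, 1.29, 0.953 and 1.48 TPM at D3, 8.52, 4.64 and 6.57 TPM at D14, 2.78, 4.07 and 3.61 TPM at D28 and 1.43, 1.69 and 1.21 TPM at D28WO. The D14 and D28 libraries lay above those of all other groups. It rose by 1.80 ± 0.23 at D14 (adjusted p = 0.00011) and by 1.07 ± 0.23 at D28 (adjusted p = 0.00231), on a log2(TPM + 1) scale that understates changes at such levels. From D3 to D14 it rose by 1.73 ± 0.23 (adjusted p = 0.000115). It fell from D14 to D28 by 0.73 ± 0.23 (adjusted p = 0.0394), lost without D14 replicate 1 or 3 or any 1 of the D28 libraries (0.0513 to 0.147), and from D28 to D28WO by 0.87 ± 0.23 (adjusted p = 0.0127), lost without D28 replicate 2 (0.0502). With quantile normalization the D28 rise of IER3 was 0.53 (adjusted p = 0.053) and the fall from D28 to D28WO -0.40 (adjusted p = 0.164). HCG20 and IER3-AS1 share exonic sequence with IER3 on the other strand.

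MAFF, a small MAF protein without an activation domain of its own that pairs with NRF2 and related factors, was the gene that rose at D3 and at D28 in both lines. In U87 it was at 66.9, 72.6 and 67.8 TPM in Untreated cells, 99.9 and 94.5 TPM at D3, 69.9 and 64.9 TPM at D14, 82.7, 79.3 and 82.3 TPM at D28 and 127, 136 and 123 TPM at D28WO. D14 overlapped with Untreated, and the D28WO libraries were the highest of the line. It rose by 0.49 ± 0.07 at D3 (adjusted p = 0.00132), by 0.23 ± 0.07 at D28 (adjusted p = 0.0253) and by 0.89 ± 0.07 at D28WO (adjusted p = 1.88e-06). The D28 call was lost without Untreated replicate 1 or 3 or D28 replicate 1 or 3 (0.0502 to 0.0709), and under median-ratio scaling the D3 rise of MAFF was 0.30 (adjusted p = 0.0526) and the D28 rise 0.05 (adjusted p = 0.709), and with quantile normalization the D28 rise was 0.16 (adjusted p = 0.104). From D3 to D14 MAFF fell by 0.52 ± 0.08 (adjusted p = 0.00273). In U251 MAFF was at 35.2, 39.0 and 30.9 TPM in Untreated cells, 47.5, 43.2 and 43.4 TPM at D3, 45.5, 40.6 and 37.8 TPM at D14, 55.6, 55.0 and 53.5 TPM at D28 and 35.1, 33.7 and 33.0 TPM at D28WO. The D3 and D28 libraries lay above every Untreated one, and D14 and D28WO overlapped with Untreated. It rose by 0.35 ± 0.09 at D3 (adjusted p = 0.00671) and by 0.63 ± 0.09 at D28 (adjusted p = 7.18e-05), and from D14 to D28 by 0.40 ± 0.09 (adjusted p = 0.00592). From D28 to D28WO the sign differed: MAFF rose by 0.65 ± 0.07 in U87 (adjusted p = 0.00014) and fell by 0.67 ± 0.09 in U251 (adjusted p = 9.04e-05), with no test between the lines. PLA2G6 on the other strand shares exonic sequence with MAFF.

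The genes most like FOS, JUN and EGR1 across the libraries of a line were sought among all genes tested, by Pearson's r of log2(TPM + 1). In U251 (15 libraries) those most like FOS were FOSB (r = 0.985), EGR1 (0.979) and JUNB (0.965), all among the 10, and those most like EGR1 were FOS (0.979), the immediate early gene IER2 (0.963) and JUNB (0.962). JUN of U251 was most like B4GAT1 (0.973), VKORC1 (0.971) and PTPRZ1 (0.968). In U87 (13 libraries) none of the 10 was among the likenesses: FOS was closest to LINC01060 (0.941), KIF14 (0.933) and TGFB1I1 (0.928), JUN had TUBA4A (0.983) and MYO1E (0.976) among its closest, and EGR1 was closest to SLC6A12 (0.879), DUSP1 (0.862) and SCD (0.842). The libraries of a group share their culture conditions and fall together, so these values describe the order of the group levels.

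Of the other immediate early genes in U251 at D3, 11 of 24 tested fell and 7 rose, where 16.0% of all genes fell and 24.9% rose. EGR2, a relative of EGR1, fell most, from a mean of 38.3 to 2.25 TPM (log2 fold change -3.64 ± 0.27, adjusted p = 1.75e-07), and IER2 fell from 250.8 to 87.5 TPM (-1.51 ± 0.09, adjusted p = 1.15e-08). KLF4, a zinc finger factor, rose in U251 at each time point, and its largest rise was at D28WO, from 4.20 to 37.8 TPM (2.90 ± 0.21, adjusted p = 2.26e-07). In U87 at D3, 4 of 24 rose and 2 fell, where 12.4% and 4.28% of all genes did. There EGR2 rose, from 27.8 to 64.0 TPM at D3 (1.18 ± 0.16, adjusted p = 0.000675) and to 75.9 TPM at D28 (1.41 ± 0.15, adjusted p = 4.96e-05), and HBEGF, a growth factor of the EGF family, fell from 59.0 to 32.9 TPM at D28 (-0.82 ± 0.12, adjusted p = 0.000565). At D28WO 7 rose and 9 fell of 24 in U87, and 6 rose and 11 fell of 24 in U251, where 28.6% and 13.4% and 14.3% and 13.4% of all genes did. The median of this list at D3 was 0.26 in U87 and -0.43 in U251, where that of all genes was 0.20 and 0.13.

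Of the other AP-1 proteins of the basic leucine zipper class, 5, 2, 7 and 8 of 11 tested rose in U87 at D3, D14, D28 and D28WO and 0 fell, where 12.4%, 4.14%, 17.2% and 28.6% of all genes rose and 4.28%, 1.02%, 6.55% and 13.4% fell. In U251, 6, 6, 8 and 8 of 12 rose and 1, 1, 2 and 0 fell, where 24.9%, 13.8%, 25.9% and 14.3% of all genes rose and 16.0%, 7.31%, 14.7% and 13.4% fell. BATF2, which IFN-γ is known to induce, led in both lines, from 4.10 to 92.5 TPM at D28WO in U87 (4.21 ± 0.13, adjusted p = 5.32e-09) and from 1.82 to 107 TPM in U251 (5.26 ± 0.14, adjusted p = 4.96e-12). At D14 BATF2 was at 4.46 TPM in U87. MAFA fell in U251 at D28, from 2.15 to 0.826 TPM (-0.81 ± 0.31, adjusted p = 0.0491).

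Upstream, of 11 MAP kinase genes at D3, 0 passed the threshold in U87 and 2 rose and 2 fell in U251, and of 8 genes for SRF, ternary complex factors and NAB corepressors, 0 passed it in U87 and 2 rose and 1 fell in U251. Over all genes, 16.7% passed it in U87 and 40.9% in U251. At D28WO in U87, ELK4 rose by 1.03 ± 0.14 (adjusted p = 0.000121) and NAB2, a corepressor of EGR1 that EGR1 itself induces, fell by 0.40 ± 0.07 (adjusted p = 0.000533), and MAPK10 rose by 1.13 ± 0.28 (adjusted p = 0.00743) while MAP2K1 fell by 0.33 ± 0.09 (adjusted p = 0.00837). In U251, NAB2 rose at D28WO by 0.88 ± 0.14 (adjusted p = 0.000266), ELK3 fell at D28 by 0.64 ± 0.07 (adjusted p = 6.48e-06), MAPK10 rose by 0.58 ± 0.20 (adjusted p = 0.0304) and MAPK3 fell by 0.84 ± 0.13 (adjusted p = 0.000206).

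Among the phosphatases and Sprouty proteins that damp MAP kinase signalling, 3 of 13 rose and 2 fell in U87 at D3, and 3 of 14 rose and 5 fell in U251, where 12.4% and 4.28% of all genes in U87 and 24.9% and 16.0% in U251 did. In U87 at D28WO, DUSP8 rose by 1.30 ± 0.26 (adjusted p = 0.0019) and SPRY1 fell by 1.22 ± 0.28 (adjusted p = 0.00422). In U251, DUSP4 went from 6.87 TPM in Untreated cells to 41.0 TPM at D28 (2.42 ± 0.12, adjusted p = 3.15e-09), and DUSP5 from 46.0 to 17.4 TPM at D28WO (-1.36 ± 0.19, adjusted p = 0.000102). From D28 to D28WO 11 of the 14 fell in U251 and 1 rose, where 18.8% and 10.3% of all genes did, with a median of -1.0 where that of all genes was -0.12.

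Genes known as AP-1 targets were called at D3 as 10 rises and 3 falls of 19 in U87 and as 12 rises and 4 falls of 18 in U251, where FOS and JUN fell, beside 12.4% rises and 4.28% falls over all genes in U87 and 24.9% and 16.0% in U251. In U87 the cytokine IL6 rose most, from 53.9 to 391 TPM at D28WO (2.84 ± 0.11, adjusted p = 1.87e-08), and the protease PLAU fell from 242 to 129 TPM (-0.90 ± 0.08, adjusted p = 9.39e-06). In U251 the metalloprotease MMP3 rose most, from 0.866 to 36.9 TPM at D28 (4.36 ± 0.20, adjusted p = 1.29e-09), and LIF fell most, from 24.8 to 4.46 TPM at D3 (-2.23 ± 0.20, adjusted p = 1.31e-06). MMP3 was at 0.318 TPM at D28WO, a fall from D28 of 4.85 ± 0.20 (adjusted p = 8.12e-09). Between D28 and D28WO, 13 of 18 targets fell and 0 rose in U251, with a median of -0.90, and 8 of 19 rose and 3 fell in U87. Over all genes 18.8% fell and 10.3% rose in U251 there, with a median of -0.12, and 9.90% rose and 8.44% fell in U87, with a median of 0.04. With quantile normalization the share of rises among all calls of this U251 contrast was 51.8% in place of 35.5%. Many of these genes also answer to NF-κB.

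**Figure D4:**
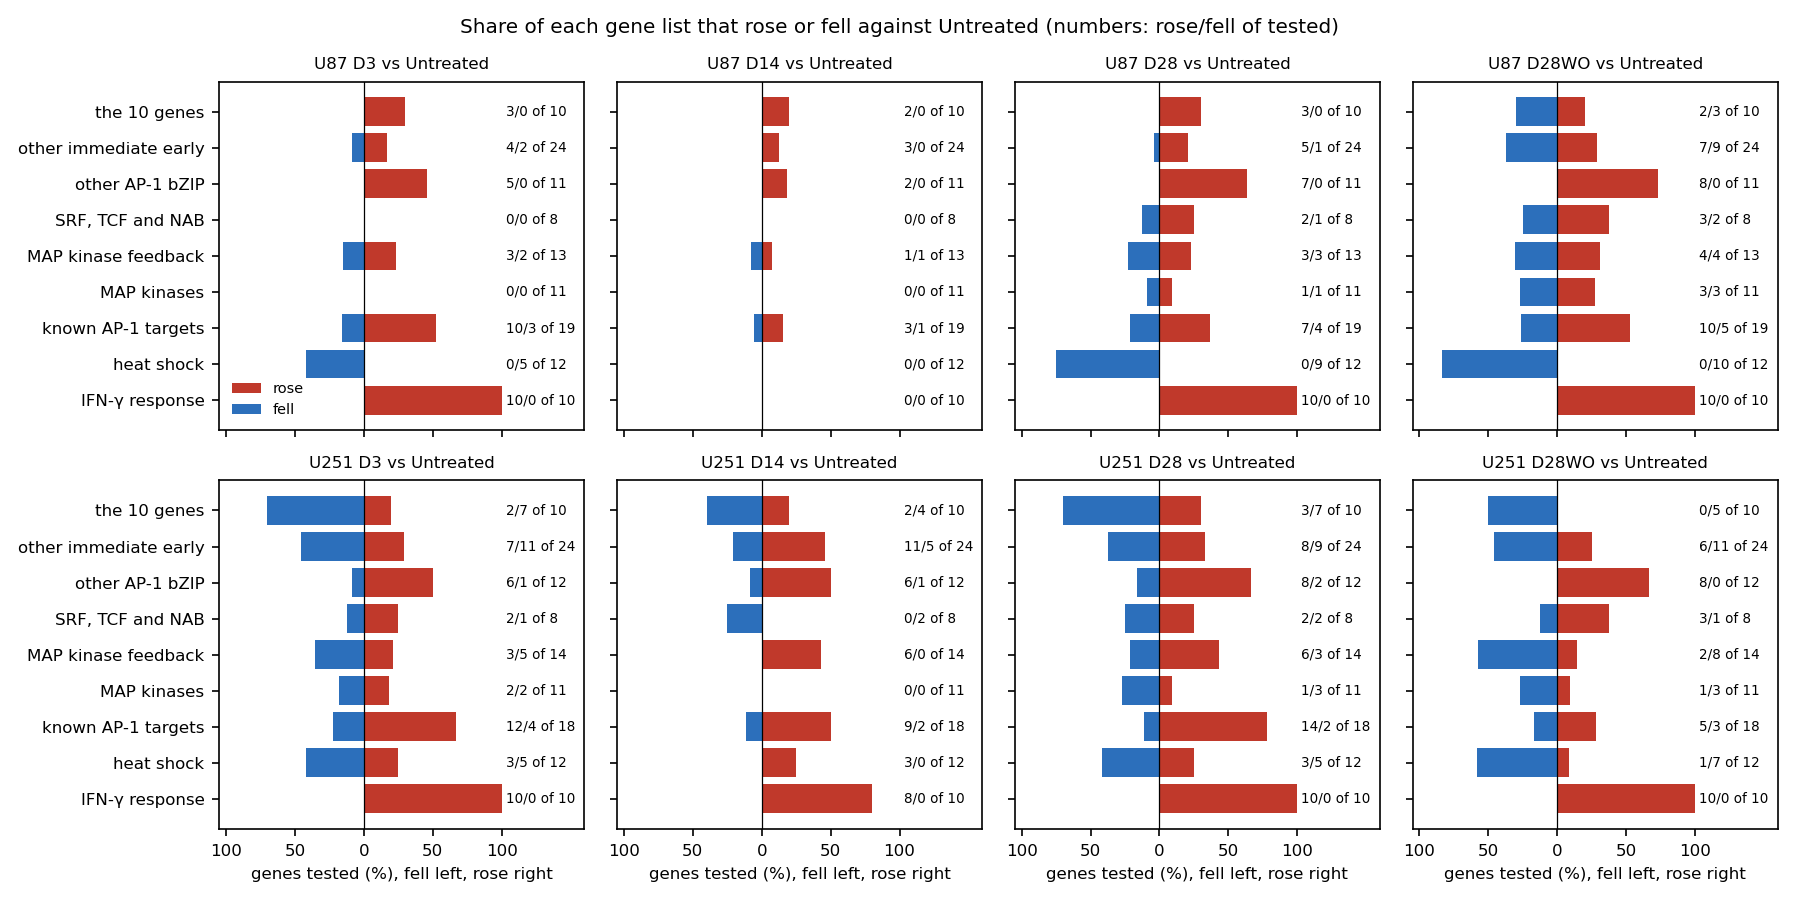
Share of the tested genes of each list that rose (red, to the right) or fell (blue, to the left) against Untreated at an adjusted p under 0.05, in percent on the x axis, for U87 (top) and U251 (bottom) at D3, D14, D28 and D28WO; the numbers give rose/fell of tested. The 10 genes read 3/0 in U87 and 2/7 in U251 at D3, and the IFN-γ response list reads 0/0 of 10 in U87 at D14.

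Levels of other gene groups moved with these results, and their part in them was not tested. Of 12 heat shock genes, a sign of stress in handling or culture, 5, 0, 9 and 10 fell in U87 at D3, D14, D28 and D28WO. In each case 0 rose. Over all genes 4.28%, 1.02%, 6.55% and 13.4% fell there and 12.4%, 4.14%, 17.2% and 28.6% rose. The summed level of the list went from 2706 to 3177 TPM in Untreated libraries to 1591 to 1682 TPM at D28WO, led by HSPA8 (-1.34 ± 0.10, adjusted p = 1.66e-06). In U251, 5, 0, 5 and 7 of the 12 fell and 3, 3, 3 and 1 rose at the same time points. Over all genes 16.0%, 7.31%, 14.7% and 13.4% fell there and 24.9%, 13.8%, 25.9% and 14.3% rose. The summed level in U251 was 2136 to 2300.4 TPM in Untreated cells and 1899.9 to 2027 TPM at D3. DNAJB1 fell at D3 by 0.53 ± 0.05 (adjusted p = 2.37e-06), and HSPA6 rose at D28 by 2.13 ± 0.33 (adjusted p = 0.000167). Of the glioma and neural markers of U251, 7 of 8 tested fell at D3, 6 at D14 and 7 at D28 and at D28WO. Over all genes 16.0%, 7.31%, 14.7% and 13.4% fell at these time points. At D14 FOSL2, JUN, JUND and EGR1 fell too, FOSL1 and IER3 rose, and FOS was at -0.01. The sum of the markers went from 3831 to 3911 TPM in Untreated U251 to 1605 to 1933 TPM at D3. In U87 1 of 8 markers rose and 1 fell at D3, where 12.4% and 4.28% of all genes did. At D28WO 4 of the 8 rose and 3 fell in U87, where 28.6% and 13.4% of all genes did, and their sum went from 2139.6 to 2349 TPM in Untreated cells to 1789 to 1949.9 TPM. There CD68, the 1 leukocyte marker tested, fell (-0.57 ± 0.14, adjusted p = 0.00753), as did EPCAM (-1.64 ± 0.34, adjusted p = 0.00255) and KRT19 (-1.31 ± 0.34, adjusted p = 0.00803) of the 3 epithelial markers and CDH5 of the 3 endothelial ones (-0.89 ± 0.31, adjusted p = 0.0341). The 3 endothelial markers of U251 summed to 26.6 to 38.4 TPM in Untreated cells and 2.45 to 3.46 TPM at D3, where 1 of 3 fell, and the 3 epithelial markers to 3.88 to 5.81 TPM and 1.51 to 3.72 TPM. The 6 leukocyte markers summed to 136 to 144 TPM and 82.9 to 140.5 TPM, with 1 rise and 1 fall among the 3 tested. From D3 to D14 in U251, 8 of 12 heat shock genes and 5 of 8 glioma and neural markers rose and 0 of either fell. Over all genes 12.8% rose and 12.6% fell at that step. From D28 to D28WO in U87, 6 of 12 heat shock genes fell and 0 rose, and 4 of 8 glioma and neural markers fell and 1 rose. The 1 leukocyte marker tested and 1 of 3 epithelial markers fell there too. Over all genes 8.44% fell and 9.90% rose in that contrast. No marker of these lists was at 0 in every library. A lower level in such bulk RNA can come from fewer expressing cells or from less RNA per cell, which cannot be told apart.

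Without a filter on low values, which adjusts over all genes of the table, 20 of the 73 calls were lost, with adjusted p from 0.0593 to 0.156, and all 20 were also lost when some 1 library was left out. With only the 2 compared groups in the fit, 17 were lost, with adjusted p from 0.0503 to 0.114. Of these 17, those that held without any 1 library were, in U87, FOSB at D28 (0.0553), FOS and MAFF from D3 to D14 (0.0749 and 0.114), FOS from D14 to D28 (0.101) and FOSB from D28 to D28WO (0.0503), and, in U251, FOSL2 and JUND from D3 to D14 (0.0517 and 0.0807).

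Under the limits of the study, which add an absolute log2 fold change over 1, 18 of the 73 calls remained. In U87 these were 1 of 10 genes at D3 (FOSB), 2 at D14 (FOS and FOSB), 1 at D28 (FOSB) and 0 at D28WO, against 6.23%, 2.10%, 7.38% and 14.9% of all genes. In U251 they were 5 at D3 (FOS, FOSB, JUN, JUNB and EGR1), 1 at D14 and 1 at D28 (IER3 in each) and 0 at D28WO, against 14.3%, 5.76%, 15.2% and 7.45%. From D3 to D14 they were 1 in U87 (FOS) and 5 in U251 (FOS, FOSB, JUNB, EGR1 and IER3), against 2.63% and 6.49%. From D14 to D28 they were 0 in both lines, against 2.12% and 5.84%, and from D28 to D28WO 1 in U87 (FOSB) and 0 in U251, against 5.53% and 9.26%.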

How the data were processed

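RNA of 2 glioblastoma lines was sequenced as paired ends. According to the study's methods and the processing notes, the authors trimmed reads with Trim Galore, checked them with FastQC, aligned them to GRCh38 with STAR and counted them with featureCounts. The deposited values are used as TPM, as the labels name the tables, 1 per line; how the authors computed them is not given in the sources used here, and each library sums to 1000000. A supplementary sheet of the study calls the same matrices CPM. Between 31 and 60 genes of a library lie above 0 and under 0.001, which whole reads scaled to 1000000 would not give at usual depths. The sums, shares and ratios of family members and any order of levels between genes assume values per length, which was not tested; comparisons of 1 gene between groups do not. The study's methods state a minimum depth, but the reads of each library are not given in the sources used here, and no counting interval or detection limit is given. Between 24223 and 30246 genes were above 0 in a library. Of the columns, 28 were used, and 2 U87 columns with identical names were not.

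Values were taken as log2(TPM + 1), which understates changes of low genes, and genes whose mean in a line was under 0.5 TPM were dropped. The 5 groups of a line were fitted together in limma 3.58.1 (R 4.3.3; lmFit, contrasts and eBayes with a mean trend), and p-values were adjusted by Benjamini-Hochberg over all genes of a contrast. All tests were two-sided. The study's methods filter counts and fit them by voom in limma, and counts were not used here. Every adjusted p in the text comes from this fit or from the alternative named beside it. The script was tested on simulated data. Replicates correlated at Pearson's r of 0.959 to 0.974 across genes and none were identical.

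Named are the 10 genes, the 3 genes most like FOS, JUN and EGR1 by Pearson's r, and in each list the genes with the largest rise and fall against Untreated. IER2, BATF2 at D14, EGR2 at D3 in U87 and the marker genes were named after their values were seen, and 2 genes are not reported here. The members and lists were chosen with earlier results of these data known. Alternatives were another pseudocount, other filters, quantile normalization, median-ratio size factors computed on TPM, array weights, a replicate block, only the 2 groups compared, and leaving out each library; leaving out the D14 libraries was added after seeing the data. Promoter sequences came from RefSeq (GRCh38.p14). The label gives 1 µg/mL of IFN-γ, and the sources differ on the dose and on the day on which Untreated cells were collected.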

Additional observations from a re-analysis of the deposited data

Results flagged for a closer look

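In 7 of 40 pairs of gene and time point, every treated library of 1 line lay above, and every treated library of the other line below, all Untreated libraries of its own line; the difference between the lines was not tested. Of all pairs of the 20473 genes tested in both lines, 6.46% did the same. The log2 fold changes are given for U87 first. At D3 they were 1.39 and -3.27 for FOSB, -0.31 and 0.33 for FOSL1, and 0.36 and -0.62 for FOSL2. At D14 they were -0.23 and 0.24 for FOSL1 and 0.20 and -0.32 for FOSL2. At D28 they were 0.60 and -0.53 for FOS and 1.85 and -0.51 for FOSB. The U87 values of FOSL1 at both times and of FOSL2 at D14 did not pass the threshold, and the U87 libraries at D14 lacked the IFN-γ response. No group had more than 3 libraries, so single libraries were not screened as outliers.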

How the results depend on the processing

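Of the 73 calls among 140 log2 fold changes of the 10 genes, 0 changed direction under any alternative run, and 7 of 23 calls in U87 and 31 of 50 in U251 held under every one. Calls lost were 20 without a filter on low values, 17 with only the 2 compared groups, 11 with quantile normalization, 10 with median-ratio size factors, 1 with a pseudocount of 0.1, 0 with a filter at a mean of 1 TPM and 0 with array weights, and 6 of the 48 calls in contrasts without D14 when the D14 libraries were left out. The cause was not tested beyond what these settings change. The limma fits have few libraries, which limits what they can detect, and the depth of each library is not known.

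The numbers of genes called per contrast were, in U87, 3 at D3 (1 without a filter, with 2 groups and without the D14 libraries), 2 at D14 (1 with 2 groups), 3 at D28 (1 with 2 groups), 5 at D28WO (2 without a filter, 3 with quantile normalization and 3 with 2 groups), 2 for D14 against D3 (0 with 2 groups), 1 for D28 against D14 (2 with quantile normalization and 0 with 2 groups) and 7 for D28WO against D28 (4 without a filter, 4 with size factors and 4 with 2 groups). In U251 they were 5 at D28WO (2 without a filter and 3 without the D14 libraries) and 6 for D28 against D14 (3 without a filter). The study's limit on fold change left 1, 2, 1, 0, 1, 0 and 1 in U87 and 5, 1, 1, 0, 5, 0 and 0 in U251, in the order D3, D14, D28 and D28WO against Untreated, D14 against D3, D28 against D14 and D28WO against D28. When single libraries were left out, the counts in this order were 1 to 2, 1 to 2, 2 to 4, 2 to 4, 2, 1 and 4 to 6 in U87 and 9, 5, 7 to 10, 2 to 3, 8, 2 to 5 and 4 to 6 in U251. Leaving out 1 U87 library at D3 or D14 leaves 1 sample in that group, which the fit assumes to vary like the other groups.

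Replicate numbers of different groups did not pair the libraries: same-numbered libraries deviated from their group means with r of -0.058 to 0.0472 in U87 (23 pairs) and -0.0375 to 0.048 in U251 (30 pairs). With a replicate block, 6 of the 73 calls were lost. The block left 1 call of 3 in U87 at D3 and 3 of 5 in U251 at D28WO, and 2, 3, 5, 2, 1 and 6 in the other U87 contrasts and 9, 6, 10, 8, 5 and 6 in the other U251 contrasts, each within 1.5 times of the fit without it.

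Values that changed sign had not passed the threshold. With median-ratio size factors, against Untreated in U87, they were -0.18 for JUNB and -0.15 for IER3 at D3, -0.10 for JUNB and -0.075 for EGR1 at D14, -0.090 for JUNB and -0.089 for JUND at D28, and -0.12 for FOSB, -0.15 for JUNB and -0.0082 for JUND at D28WO. With quantile normalization they were 0.091 for JUN and 0.063 for IER3 at D28 in U87, -0.33 for FOSB at D28WO, -0.0063 for JUN from D3 to D14 and 0.029 for FOSL1 from D28 to D28WO, and, in U251, -0.30 for IER3 at D3 and 0.18 for FOS at D14. With array weights JUNB of U87 was 0.0043 from D28 to D28WO. Leaving out single libraries, the ranges that crossed 0 in U87 were, at D3, -0.037 to 0.058 for JUNB and -0.026 to 0.12 for IER3; at D14, -0.0026 to 0.19 for EGR1 and -0.088 to 0.016 for MAFF; at D28, -0.096 to 0.016 for JUN and -0.12 to 0.032 for IER3; and at D28WO, -0.039 to 0.32 for FOSB. Between groups of U87 they were -0.0056 to 0.057 for JUN from D3 to D14, -0.067 to 0.13 for FOSL2 and -0.044 to 0.061 for JUNB from D14 to D28, and -0.085 to 0.083 for FOSL1 and -0.053 to 0.053 for JUNB from D28 to D28WO. In U251 they were -0.027 to 0.17 for IER3 at D3, -0.055 to 0.072 for FOS at D14, -0.12 to 0.040 for MAFF at D28WO and -0.074 to 0.13 for FOSB from D28 to D28WO.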
